A study of Homo sapiens with 12 samples.

Results

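The 10 genes described here belong to the Notch pathway and were followed across 4 groups of a human lung cancer line: the receptors NOTCH1, NOTCH2 and NOTCH3, the ligands JAG1, JAG2 and DLL1, the transcriptional targets HES1, HEY1 and HEY2, and the target and feedback regulator NRARP. They were taken from a list of symbols, with every probe set that the platform annotation assigns to 1 of these symbols alone. The 10 members were all measured, of 19775 genes, and were read by 26 of the 54675 probe sets on the array. JAG1 had 6 probe sets, NOTCH2 had 4, HES1 had 3 and NRARP had 1, and each of the others had 2.

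Notch receptors are membrane proteins that are cut after a ligand on a neighbouring cell binds them. The first cut is made by ADAM proteases and the next by gamma-secretase, which frees the intracellular domain. That domain enters the nucleus, joins the DNA-binding protein RBPJ and a Mastermind coactivator, and switches on genes such as those of the HES and HEY families, which are transcriptional repressors. In lung tissue the pathway is known for steering airway cells away from the neuroendocrine fate.

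NCI-H1299, a long-established line from a human non-small cell lung cancer, supplied every sample, with 1 Affymetrix HG-U133 Plus 2.0 array each and 3 arrays in each group. Parental culture means cells grown in medium with serum. Spheroid culture means cells moved to a stem cell medium for 7 to 10 days, of which the floating cells were collected and plated in flasks that hinder attachment. Parental and spheroid xenografts are tumours grown from each of these. No transgene or drug is named for any group, all groups share the same line, and the culture medium differs together with the growth form, so the effects of these cannot be told apart. The labels call the replicates of every group biological. The sources used here name neither the host animal, its age nor whether each tumour had an animal to itself. The p-values therefore cover only the variation among these samples, and part of that variation may be technical.

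The values are log2 expression values, and the array medians lay between 5.85 and 6.03. On every array the probe set that stands for each member, the one with the highest mean over the 12 arrays, was above that array's lower quartile (4.63 to 4.80). Arrays of parental culture spread most: the median over genes of the SD among 3 arrays was 0.316 there and 0.156 to 0.199 in the other groups. The control probe set for 18S ribosomal RNA (5' end) read 6.96 and 10.50 on replicates 1 and 2 of parental culture and 12.21 to 13.34 on the other 10 arrays, so the calls that rest on parental culture, and the culture values of JAG2, HES1, HEY1 and HEY2, are also given without both of those arrays, which leaves 1 array that is assumed to vary like the other groups. The GAPDH control probe set at the 3' end exceeded that at the 5' end by 0.49 on parental culture replicate 1. On all other arrays it did so by 0.02 to 0.13. For actin the same excess was 0.78 on that array, 0.77 on spheroid culture replicate 1 and 0.18 to 0.64 elsewhere. Whether the RNA of parental culture replicate 1 was of lower quality was not tested. Of the genes listed as markers of a line of this origin, VIM (vimentin) had group means of 14.16 to 14.68. KRT18, an epithelial keratin, had group means of 10.85 to 12.56. KRT8, the partner of KRT18, averaged 8.96 in parental culture and 7.19 to 7.53 in the other groups. CDH1 and EPCAM, which mark differentiated epithelium, were below the lower quartile on all 12 arrays. A host animal also brings cells of its own, and in such bulk RNA fewer cells of a type and less RNA per cell cannot be told apart.

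The RNA levels can be set beside the promoters, since HES and HEY genes are known for RBPJ sites near their start. Windows of 300 bases, from 250 before to 50 after the start of transcription, were at hand for 8 of the 10 members in a RefSeq table of build GRCh38.p14, and those for HEY1 and DLL1 were not among them. The motif searched was the RBPJ core TGGGAA on either strand, which reads TTCCCA on the opposite one. It was found at least once in 24.0% of all 35116 windows and 2 or more times in 3.80% of them. Among the members 2 windows of 8 held it, those of HES1 and HEY2, with 2 copies each. In HES1 the copies began 84 and 70 bases before the start on the gene's own strand. In HEY2 one began 213 bases before the start on the opposite strand and the other 3 bases before it on the gene's own strand. These 2 windows are shown because they hold the core, and those of JAG1 and NRARP because both genes differed between groups below and their windows held none. What is printed is the part before the start, 250 bases, which for HEY2 runs on to 253 bases so that its core is whole; the rest of each 300-base window is left out. Capitals mark the core, and each sequence is read 5' to 3' on the gene's strand. HES1 is at chr3:194135898-194136147 on the plus strand, HEY2 at chr6:125749382-125749634 on the plus strand, JAG1 at chr20:10674000-10674249 on the minus strand and NRARP at chr9:137302272-137302521 on the minus strand.
HES1: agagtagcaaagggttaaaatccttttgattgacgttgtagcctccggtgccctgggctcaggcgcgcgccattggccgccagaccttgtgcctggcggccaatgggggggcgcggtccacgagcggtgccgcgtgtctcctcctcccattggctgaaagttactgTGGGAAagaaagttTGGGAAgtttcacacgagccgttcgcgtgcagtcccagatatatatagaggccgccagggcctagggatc
HEY2: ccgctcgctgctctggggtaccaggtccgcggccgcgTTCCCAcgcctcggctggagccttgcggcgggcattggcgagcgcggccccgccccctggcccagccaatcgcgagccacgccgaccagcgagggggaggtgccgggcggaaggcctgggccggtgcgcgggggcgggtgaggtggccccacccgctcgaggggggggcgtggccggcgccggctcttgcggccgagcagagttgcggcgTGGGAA
JAG1: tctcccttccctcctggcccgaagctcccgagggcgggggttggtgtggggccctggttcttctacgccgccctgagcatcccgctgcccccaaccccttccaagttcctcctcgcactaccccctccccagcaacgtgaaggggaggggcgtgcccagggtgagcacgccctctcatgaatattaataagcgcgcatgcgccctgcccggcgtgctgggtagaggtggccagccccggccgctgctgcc
NRARP: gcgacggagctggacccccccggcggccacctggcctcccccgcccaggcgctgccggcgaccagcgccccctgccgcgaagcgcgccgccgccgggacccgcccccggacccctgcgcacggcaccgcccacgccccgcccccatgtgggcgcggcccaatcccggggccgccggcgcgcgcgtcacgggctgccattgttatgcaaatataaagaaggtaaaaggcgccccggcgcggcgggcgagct
A match describes letters in the window, not a site in use.

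Of the members 3 rose in at least 1 comparison, 0 fell in any, and 7 were called in none. A gene was called where limma's p, adjusted by Benjamini-Hochberg over the 19775 genes, was under 0.05. Spheroid against parental cells in culture gave 2 members, JAG1 and NRARP, both higher in spheroids, where 2.46% of all genes were called. Parental xenografts against parental culture also gave 2, JAG1 and NOTCH2, both higher in xenografts, with 3.47% of genes called. Spheroid against parental xenografts called 0 members of 10 (0.233% of genes), spheroid xenografts against spheroid culture called 0 (0.0202%), and the interaction, which sets the spheroid minus parental step of the xenografts against that of the cultures by subtraction, called 0 (0.137%). Arrays with the same replicate number deviated together within the xenografts and within the spheroid groups. The labels do not say that this number pairs arrays. With that number as a block in the 6 arrays compared, 491 genes (2.48%) in place of 46 and again 0 members were called between the xenografts, and 591 genes (2.99%) with JAG1 and HEY1, both higher in xenografts, for spheroid xenograft minus culture.

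**Figure D1:**
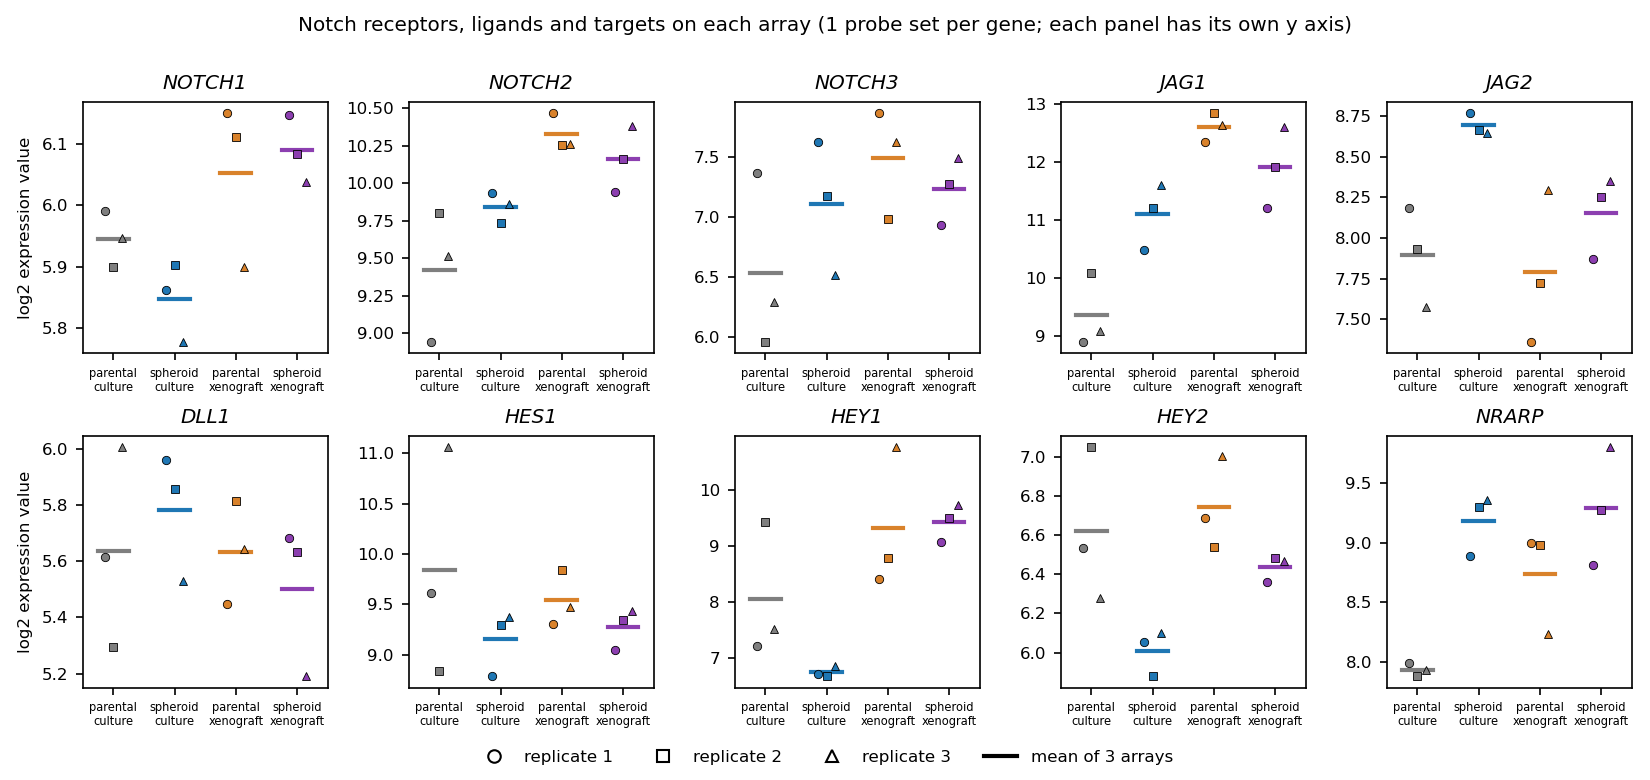
Log2 expression value of each member on the 12 arrays, by its brightest probe set; symbols are the replicates of each group, lines the group means, and every panel has its own y axis. JAG1 and NRARP were lowest in parental culture without overlap with any other group, and HEY1 and HEY2 were lowest in spheroid culture without overlap.

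Among the receptors, NOTCH2, a broadly expressed member of the family, was the one called. On 202443_x_at it read 8.94, 9.80 and 9.51 in parental culture, 9.94, 9.74 and 9.86 in spheroid culture, 10.47, 10.25 and 10.27 in parental xenografts, and 9.94, 10.16 and 10.39 in spheroid xenografts. Every xenograft array was above every culture array, but barely: the lowest xenograft read 9.9446 and the highest culture 9.9365. The pair of culture groups and the pair of xenograft groups overlapped. On 202445_s_at, 210756_s_at and 212377_s_at, the other NOTCH2 probe sets, culture and xenograft arrays overlapped. The group means ran from parental xenograft, 10.33 ± 0.12 (SD, n = 3), through spheroid xenograft, 10.16 ± 0.22, and spheroid culture, 9.85 ± 0.10, to parental culture, 9.42 ± 0.44. NOTCH2 rose by 0.91 log2 units (SE 0.20), or 1.88-fold, from parental culture to parental xenografts, with a limma adjusted p of 0.0322. The same step in spheroid cells was 0.32 (95% interval -0.13 to 0.76, limma adjusted p = 0.830), and the interaction was -0.59 (-1.22 to 0.04, adjusted p = 0.735), so the steps were not shown to differ. All 4 NOTCH2 probe sets pointed upwards in parental cells, by 0.28 to 0.91. The call was kept under 12 of 24 alternative settings (adjusted p 0.00329 to 0.369), and it was lost when replicate 1 (0.67, adjusted p 0.0549) or replicate 3 (0.96, adjusted p 0.0824) of parental culture was left out. Without both replicates 1 and 2 of parental culture it was 0.82 (adjusted p 0.0648). Leaving out any single parental xenograft also ended the call, with limma adjusted p of 0.0735 to 0.107. The same held without spheroid culture replicate 2 (0.0528) or 3 (0.0503) or spheroid xenograft replicate 2 (0.0581), where the difference stayed at 0.91. Of the 12 fits without 1 array, 4 kept the call. The human genome holds near-identical partial copies of NOTCH2, so its probe sets may read RNA of those copies too, which was not tested.

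NOTCH3, which is known above all from smooth muscle of vessels, varied within groups as much as between them. On 203238_s_at parental culture read 7.36, 5.96 and 6.29, spheroid culture 7.62, 7.18 and 6.52, parental xenografts 7.86, 6.99 and 7.62, and spheroid xenografts 6.93, 7.28 and 7.49. Each group overlapped its neighbours in the order of the means. Its parental xenograft minus culture difference was 0.95 (SE 0.37, limma adjusted p = 0.238), and without parental culture replicate 1 it was 1.36 (adjusted p = 0.0439). The second probe set, 203237_s_at, gave 0.07 for the same difference.

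NOTCH1, the receptor best known from T cell leukaemia, was dim and even. On 223508_at the 12 arrays lay between 5.78 and 6.15, and the group means spanned 0.24. In spheroid cells all xenograft arrays (6.15, 6.08 and 6.04) were above all culture arrays (5.86, 5.90 and 5.78), a difference of 0.24 (95% interval -0.03 to 0.51, limma adjusted p = 0.742). The other NOTCH1 probe set, 218902_at, pointed the other way there, at -0.37.

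JAG1, a ligand that binds Notch receptors on the next cell, showed the widest range of group means among the members, 3.24 log2 units. On 209099_x_at parental culture read 8.90, 10.10 and 9.09, spheroid culture 10.48, 11.21 and 11.60, parental xenografts 12.33, 12.84 and 12.63, and spheroid xenografts 11.20, 11.92 and 12.60. Parental culture lay apart from the 3 other groups, and each of those overlapped the next in the order of the means. The group means were 9.36 ± 0.64, 11.10 ± 0.57, 12.60 ± 0.25 and 11.91 ± 0.70 (SD, n = 3), in the same order.

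In culture JAG1 rose by 1.73 (SE 0.40), or 3.33-fold, from parental to spheroid cells (limma adjusted p = 0.0420). From parental culture to parental xenografts it rose by 3.24 (SE 0.40), or 9.44-fold (limma adjusted p = 0.00203). Between the xenografts the difference was -0.69 (95% interval -1.56 to 0.17, adjusted p = 0.863), and from spheroid culture to spheroid xenografts it was 0.81 (-0.05 to 1.67, adjusted p = 0.716). Among the 6 arrays of the latter, JAG1 was higher in the xenograft in 3 of 3 same-numbered pairs. In their limma fit with the replicate number as a block the 0.81 had an adjusted p of 0.0210. Over its 24 alternatives the adjusted p ran from 0.0210 to 1.00, with this 1 call. The interaction was -2.43 (SE 0.56, 95% interval -3.65 to -1.21), which did not pass over all genes (limma adjusted p = 0.151). Both called differences use the parental culture arrays, which the 2 comparisons share.

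The JAG1 rise in parental xenografts was called in all 24 alternatives, at 2.39 to 3.61 and adjusted p of 4.147e-05 to 0.0204. Without both replicates 1 and 2 of parental culture it was 3.51 (adjusted p 0.00788). The rise in spheroid culture was called in 11 of 24 alternatives, with adjusted p of 0.00168 to 0.183. That call was lost without replicate 1 (1.5, adjusted p 0.0794) or 3 (1.60, adjusted p 0.135) of parental culture, without replicate 2 (1.68, adjusted p 0.183) or 3 (1.48, adjusted p 0.164) of spheroid culture, and without both replicates 1 and 2 of parental culture (2.01, adjusted p 0.0888). It was also lost without any one parental xenograft (adjusted p 0.0527 to 0.0616) or spheroid xenograft replicate 2 (0.0720), where the difference stayed at 1.73.

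By the mean over the 12 arrays the 6 probe sets of JAG1 fell into bright (8.19 to 11.24) and dim ones (5.62 and 5.68). In parental culture the bright 209098_s_at and 231183_s_at averaged 6.15 and 6.47, against 5.51 and 5.45 for the dim pair. The split is thus not separate from the rise in the other groups. When all 54613 probe sets outside the controls were tested with limma, 4 of the 6 were called for parental xenograft minus culture: 209098_s_at at 3.77 (adjusted p = 0.00465), 216268_s_at at 3.44 (0.00452), 209099_x_at at 3.24 (0.00368) and 231183_s_at at 3.23 (0.0156). The remaining pair, 209097_s_at and 229924_s_at, stayed between 5.17 and 6.24 on every array and differed by 0.44 and 0.24. On 231183_s_at, spheroid culture replicates 1, 2 and 3 read 6.99, 8.47 and 9.18, and parental culture 6.27, 6.88 and 6.25, so the groups were also apart there. Over the members 5 probe sets of 26 were called in this comparison, against 2.34% of all probe sets, and the fifth was 202443_x_at of NOTCH2 (0.91, adjusted p = 0.0405). For spheroid minus parental in culture 1 member probe set was called (NRARP, adjusted p = 0.0464), against 1.23%, and the JAG1 probe sets were not called at that level. The other 3 comparisons called 0 of the 26, with 0.0897% of all probe sets for spheroid against parental xenografts, 0.253% for spheroid xenograft against culture, and 0.0732% for the interaction.

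**Figure D2:**
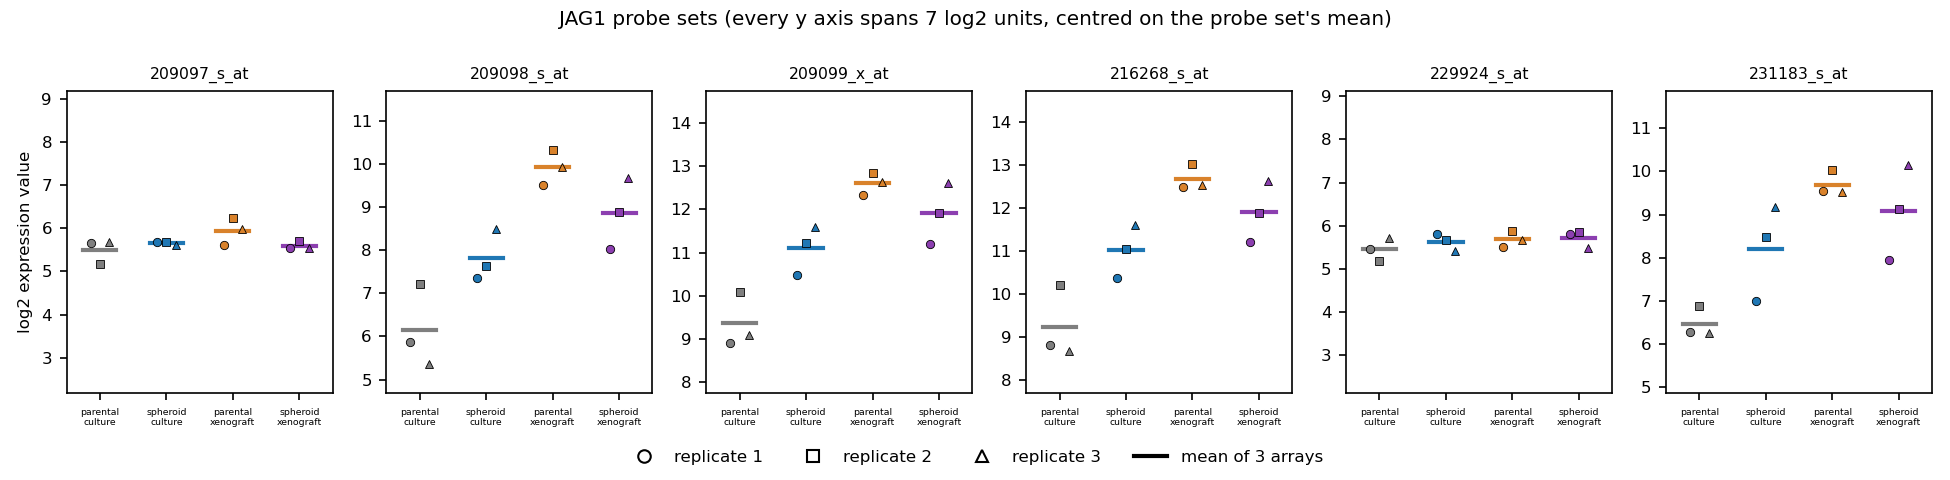
Log2 expression value of the 6 JAG1 probe sets on the 12 arrays; symbols are replicates, lines group means, and each y axis spans 7 log2 units around that probe set's mean. The 4 bright probe sets have all parental xenografts above all parental cultures, by 3.23 to 3.77 on average, while 209097_s_at and 229924_s_at stay between 5.17 and 6.24.

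JAG2, the other Jagged ligand, was highest in spheroid culture. On 32137_at it read 8.77, 8.67 and 8.65 there, against 8.18, 7.93 and 7.57 in parental culture, 7.36, 7.72 and 8.30 in parental xenografts and 7.87, 8.25 and 8.35 in spheroid xenografts. The spheroid culture arrays did not overlap those of any other group. The difference from parental culture was 0.80 (95% interval 0.29 to 1.31, limma adjusted p = 0.110) and the spheroid xenograft minus culture difference was -0.54 (-1.05 to -0.03, adjusted p = 0.648), and neither passed over all genes. The first was 1.12 (adjusted p 0.128) without both replicates 1 and 2 of parental culture. Parental xenografts had the highest mean for JAG1, where they overlapped spheroid xenografts, and the lowest mean for JAG2. That lowest place of JAG2 was not set apart from parental culture. The difference between these groups was -0.10 (SE 0.23, limma adjusted p = 0.962), and their arrays overlapped. The second JAG2 probe set, 209784_s_at, gave 0.47 in culture and -0.32 for spheroid xenograft minus culture.

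DLL1, a ligand of the Delta kind, was dim on both of its probe sets. On 227938_s_at the 12 arrays ran from 5.19 to 6.0 with group means spanning 0.28, and 224215_s_at was below the array's lower quartile on 11 of 12 arrays. No pair of groups was apart, and the differences lay between -0.28 and 0.14.

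**Figure D3:**
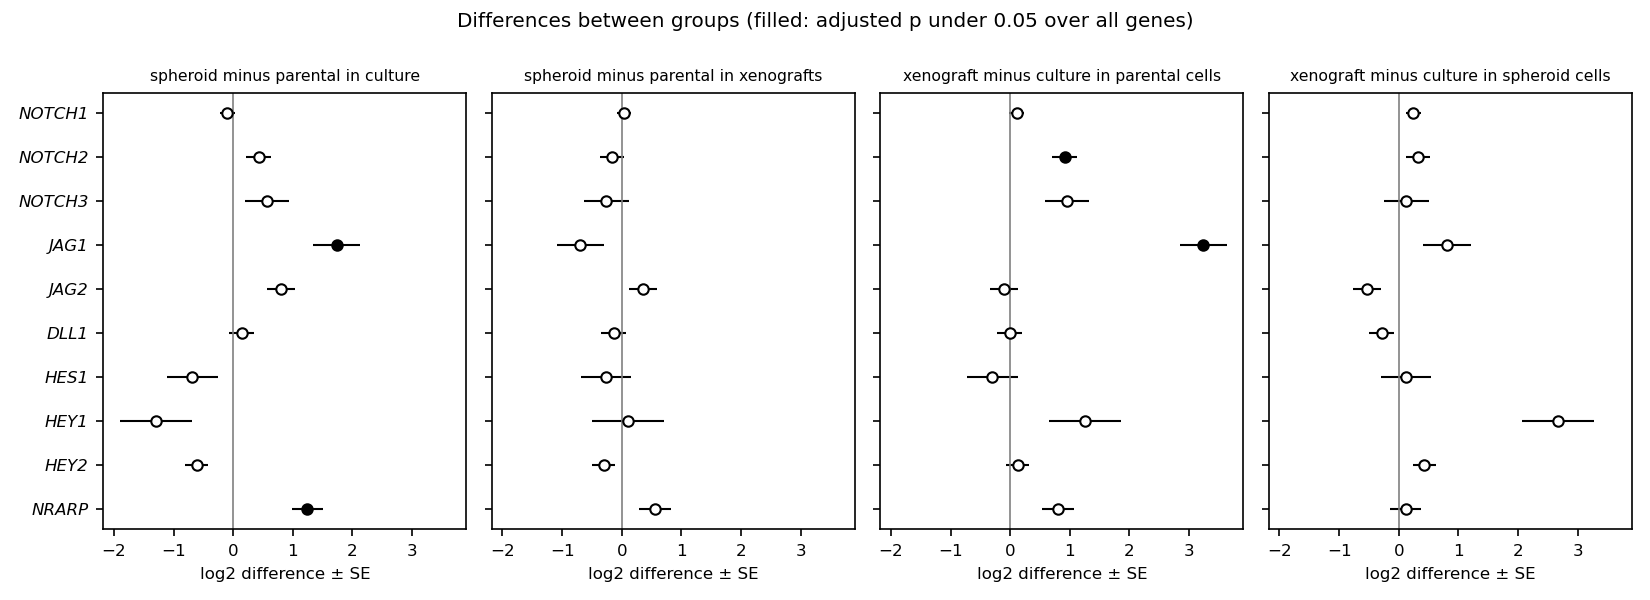
Log2 difference ± SE of each member in the 4 comparisons of 2 groups; filled points passed the limma test at an adjusted p under 0.05 over all genes. JAG1 and NRARP are filled for spheroid minus parental in culture (1.73 and 1.25), and JAG1 and NOTCH2 for parental xenograft minus culture (3.24 and 0.91).

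Among the targets NRARP was called. It is a small ankyrin repeat protein that Notch induces and that dampens Notch signalling in return. On 226499_at, its single probe set, parental culture read 8.0, 7.88 and 7.93, spheroid culture 8.89, 9.30 and 9.36, parental xenografts 9.0, 8.98 and 8.23, and spheroid xenografts 8.81, 9.27 and 9.80. Parental culture was tight and below all 9 other arrays, and the 3 other groups overlapped. NRARP rose by 1.25 (SE 0.26), or 2.37-fold, from parental to spheroid culture (limma adjusted p = 0.0293). Its parental xenograft minus culture difference was 0.80 (95% interval 0.23 to 1.37, limma adjusted p = 0.136), that between xenografts was 0.56 (-0.01 to 1.13, adjusted p = 0.700) and that between spheroid xenografts and culture was 0.11 (-0.46 to 0.68, adjusted p = 0.954). The call in culture was kept under 17 of 25 alternatives (adjusted p 0.00303 to 0.178), at 1.16 to 1.39. It was lost without parental culture replicate 3 (1.24, adjusted p 0.0866), without both replicates 1 and 2 of that group (1.25, adjusted p 0.178), without spheroid culture replicate 2 (1.19, adjusted p 0.144) or 3 (1.16, adjusted p 0.120), and without spheroid xenograft replicate 2 (1.25, adjusted p 0.0533).

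HEY1, a repressor of the HEY family, had the next widest range of group means, 2.67, and the widest spread within groups. On 44783_s_at parental culture read 7.21, 9.43 and 7.52, spheroid culture 6.72, 6.68 and 6.87, parental xenografts 8.41, 8.79 and 10.75, and spheroid xenografts 9.07, 9.50 and 9.72. Spheroid culture was below all other arrays, and the 3 other groups overlapped. Spheroid xenografts exceeded spheroid culture by 2.67 (SE 0.60, 95% interval 1.36 to 3.98), or 6.36-fold, and this did not pass over all genes (limma adjusted p = 0.145). The test uses 1 spread for all 4 groups, and the SD of HEY1 was 1.20 and 1.26 in the parental groups against 0.10 and 0.33 in the spheroid groups. With the 6 arrays of these 2 groups alone the limma adjusted p was 0.00151, where 0.592% of all genes were called. With the replicate number as a block in those 6 arrays it was 0.00126 (2.99% of genes). Without parental culture replicate 2 it was 0.0416 (0.288%). The main fit called 0.0202%. Over all 25 alternatives the adjusted p of HEY1 ran from 8.54e-04, with array weights (4.63%), to 0.588, with 6 calls. The second probe set, 218839_at, gave 2.03.

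Parental xenografts exceeded parental culture in HEY1 by 1.26 (95% interval -0.05 to 2.57, limma adjusted p = 0.379), or 2.40-fold, with overlap between the groups. That difference was called in 3 of 25 alternatives (adjusted p 0.0361 to 0.862), and leaving out 1 array moved it from 0.54 to 1.95. The interaction was 1.41 (-0.45 to 3.27, adjusted p = 0.886), so the xenograft steps of parental and spheroid cells were not shown to differ. In culture HEY1 differed by -1.30 (95% interval -2.61 to 0.01, limma adjusted p = 0.365) between spheroid and parental cells, and between the xenografts by 0.11 (-1.20 to 1.42, adjusted p = 1.00). The culture difference was -0.77 (adjusted p 0.794) without both replicates 1 and 2 of parental culture. The 3 arrays with the widest spread of values, replicate 2 of parental culture (interquartile range 3.44), replicate 3 of parental xenografts (3.29) and replicate 3 of spheroid xenografts (3.23), were among the 4 arrays with the highest HEY1. With the interquartile range as a covariate the spheroid xenograft minus culture difference was 2.25 (limma adjusted p = 0.0128). That fit called 1.03% of all genes.

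HEY2, the related repressor, had the same lowest group at a far smaller range. On 222921_s_at spheroid culture read 6.05, 5.88 and 6.10, parental culture 6.53, 7.05 and 6.28, parental xenografts 6.69, 6.54 and 7.01, and spheroid xenografts 6.36, 6.49 and 6.47. Spheroid culture was below all 9 other arrays, and the spheroid xenografts were below all parental xenografts. The differences did not pass: -0.61 in culture (95% interval -1.03 to -0.19, limma adjusted p = 0.140), -0.30 between xenografts (-0.73 to 0.12, adjusted p = 0.951) and 0.43 for spheroid xenograft minus culture (0.01 to 0.85, adjusted p = 0.671). The dimmer probe set 219743_at, below the lower quartile on 4 arrays, gave -0.03 in culture. The brighter one gave -0.27 there (adjusted p 0.728) without both replicates 1 and 2 of parental culture.

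HES1, the target most often read as a sign of Notch activity, was called in 0 comparisons when all 12 arrays had equal weight. On 203394_s_at parental culture read 9.61, 8.84 and 11.06, spheroid culture 8.79, 9.30 and 9.38, parental xenografts 9.31, 9.84 and 9.47, and spheroid xenografts 9.05, 9.34 and 9.43. All groups overlapped, and replicate 3 of parental culture was the highest of the 12 arrays. The spheroid minus parental difference in culture was -0.68 (95% interval -1.60 to 0.24, limma adjusted p = 0.549), the other 2 probe sets also had negative values there, and 203393_at was below the lower quartile on 9 arrays. With arrays weighted by their agreement the same difference was -1.5 (limma adjusted p = 0.00776), and over the 25 alternatives the adjusted p ran from that value to 0.915. The weighted fit called 10.6% of all genes, against 2.46% at equal weight. Without both replicates 1 and 2 of parental culture, which leaves its highest array alone, HES1 was called lower in spheroid than in parental culture (-1.91, adjusted p 0.0138) and lower in parental xenografts than in parental culture (-1.52, adjusted p 0.0207; range over the alternatives 0.0207 to 1.00). HES1 and HEY2, whose windows printed above hold the RBPJ core, were called in 0 of the 5 comparisons in the fit of all arrays at equal weight.

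Looked at over the members, values that did not overlap between 2 groups were frequent in all genes as well. In culture 5 members were apart (JAG1, JAG2 and NRARP higher in spheroids, HEY1 and HEY2 lower), against 13.8% of all genes. Between xenografts 1 was (HEY2, 16.5% of genes), for parental xenograft minus culture 3 were (NOTCH2, JAG1 and NRARP, all higher, 13.6%), and for spheroid xenograft minus culture 5 were (NOTCH1, NOTCH2, HEY1 and HEY2 higher, JAG2 lower, 18.7%). The median difference of the 10 members was 0.29 in culture against 0.07 for all genes, -0.15 against 0.02 between xenografts, 0.46 against -0.01 for parental xenograft minus culture, 0.19 against -0.05 for the same in spheroid cells, and -0.35 against -0.04 for the interaction.

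The rest of the pathway was taken from 7 lists by role, with 69 genes, of which 63 were measured. In culture 2 of the 63 rose and 1 fell (4.76%, against 2.46% of all genes), with a median of 0.06 against 0.07. For parental xenograft minus culture 4 rose and 1 fell (7.94%, against 3.47%), with a median of 0.09 against -0.01. The 3 other comparisons called 0 of the 63, with medians between -0.07 and 0.07. When both replicates 1 and 2 of parental culture were left out, the called genes kept their direction. In culture the differences were -2.05 (PSENEN), 1.92 (HES4) and 3.12 (EFNB2). For parental xenograft minus culture they were -0.94 (DLL3), 1.84 (HES4), 0.82 (CCND1), 2.65 (GATA3) and 3.92 (EFNB2).

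Of the 6 other receptors and ligands, DLL3 was the one called. DLL3 is a Delta-like protein known as an inhibitor of Notch and as a marker of neuroendocrine lung tumours. It read 8.91, 9.06 and 8.79 in parental culture and 7.53, 7.96 and 8.07 in parental xenografts, and fell by 1.07 log2 units (SE 0.17, limma adjusted p = 0.00589). The spheroid groups lay between 7.93 and 8.41, below all parental cultures. The difference was -0.94 (adjusted p 0.0664) without both replicates 1 and 2 of parental culture. DNER, a ligand described in neurons, read 9.34, 6.64 and 6.80 in parental xenografts and 4.64 to 4.99 in spheroid xenografts, a difference of -2.75 with limma adjusted p = 0.0782.

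Among 7 measured genes of receptor cleavage PSENEN, a subunit of gamma-secretase, fell by 1.68 (SE 0.37, limma adjusted p = 0.0352) from parental to spheroid culture. Its values were 9.15, 10.90 and 10.58 in parental culture and 8.20, 8.47 and 8.90 in spheroid culture, and both xenograft groups lay between 8.73 and 9.37. It stayed called without both replicates 1 and 2 of parental culture (-2.05, adjusted p 0.0130). The lists of the nuclear complex (11 of 14 measured), receptor glycosylation (5 of 5), endocytosis and turnover (12 of 12) and neuroendocrine factors repressed by Notch (5 of 7) had no call in any comparison. The brightest genes of these lists were SNW1, a coregulator in the nuclear complex, with group means of 10.95 to 11.36, POGLUT1, which adds glucose to the receptors (7.82 to 8.11), AAK1, a kinase of endocytosis (9.52 to 9.98), and NEUROG1, a proneural factor (6.27 to 6.38).

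Further targets held the other calls, 2 of 17 in culture and 4 of 17 for parental xenograft minus culture. EFNB2, the ephrin-B2 ligand known from arteries, read 7.73, 8.20 and 7.24 in parental culture, 9.08, 10.87 and 11.13 in spheroid culture, 11.50, 10.93 and 11.04 in parental xenografts and 10.93, 11.47 and 12.07 in spheroid xenografts. It rose by 2.64 in culture (SE 0.47, limma adjusted p = 0.0148) and by 3.43 in parental xenografts (adjusted p = 0.00284). HES4, a HES family repressor, read 7.49, 7.96 and 7.21 in parental culture and 8.48, 9.47 and 9.46 in spheroid culture, and rose by 1.58 (limma adjusted p = 0.0324) there and by 1.5 (adjusted p = 0.0339) in parental xenografts.

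GATA3, a transcription factor of T cell and luminal breast fate, rose by 2.20 (limma adjusted p = 0.00270) and CCND1, cyclin D1 of the cell cycle, by 0.82 (adjusted p = 0.0468), both for parental xenograft minus culture. Without both replicates 1 and 2 of parental culture EFNB2 (3.92, adjusted p 0.0156) and GATA3 (2.65, 0.00705) stayed called for parental xenograft minus culture, and HES4 (1.84, 0.0719) and CCND1 (0.82, 0.147) did not. In culture neither EFNB2 (3.12, 0.0546) nor HES4 (1.92, 0.0863) stayed called without them. EFNB2 and HES4, like JAG1 and NRARP, were lowest in parental culture with no overlap with another group. Both sets of calls use the same parental culture arrays.

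**Figure D4:**
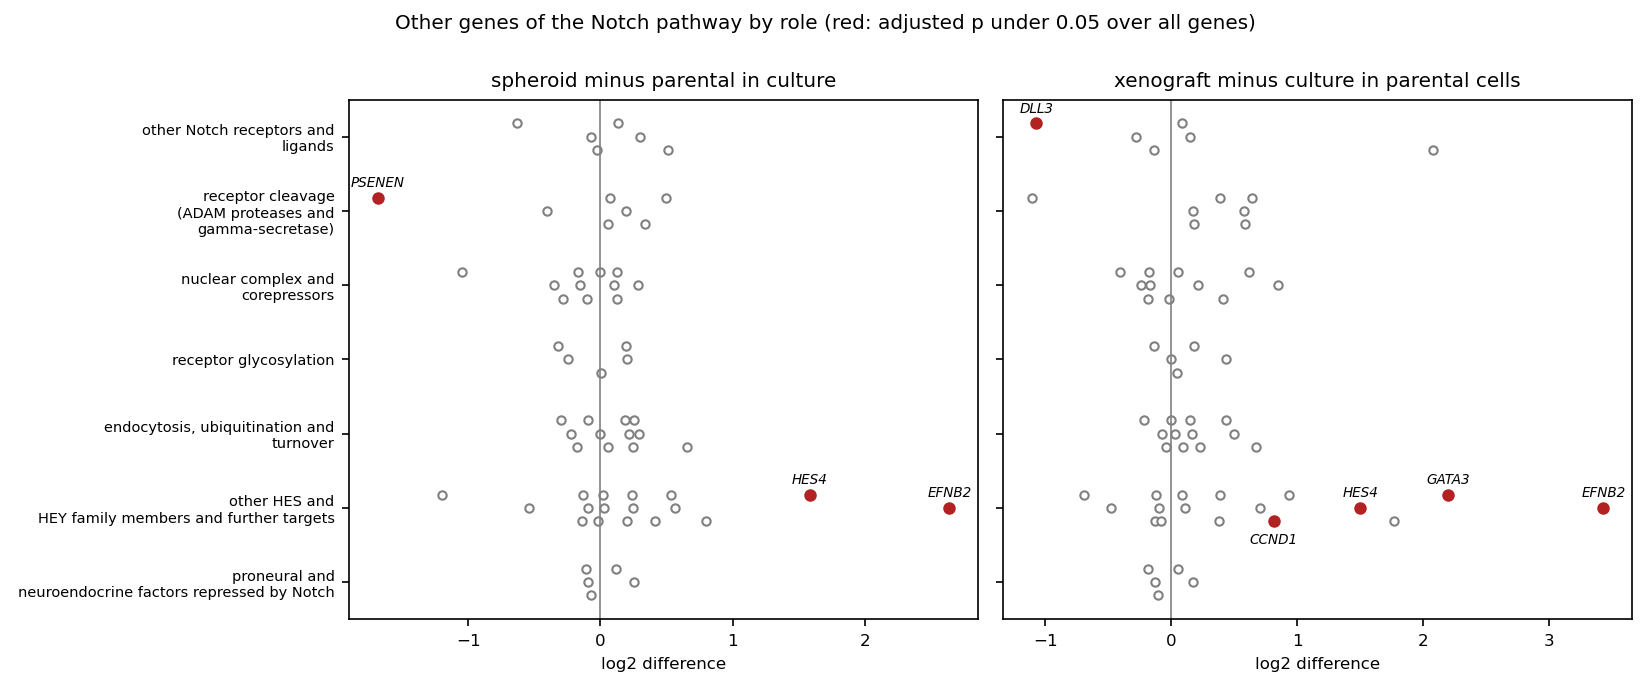
Log2 difference of the 63 measured pathway genes outside the members, by role, for spheroid minus parental in culture (left) and parental xenograft minus culture (right); each point is a gene, and red points passed the limma test at an adjusted p under 0.05. The called genes are PSENEN (-1.68), HES4 (1.58) and EFNB2 (2.64) on the left, and DLL3 (-1.07), CCND1 (0.82), HES4 (1.5), GATA3 (2.20) and EFNB2 (3.43) on the right.

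JAG1, NOTCH3 and HEY genes are also expressed by vessel cells and fibroblasts, so markers of these were read on the same arrays. Of 9 endothelial, 8 pericyte and smooth muscle and 7 myeloid markers, 0 were called in any comparison. The mean level of the endothelial list was 5.09 to 5.46 in parental culture and 5.04 to 5.32 in parental xenografts, and KDR and TIE1 were below the lower quartile on all 12 arrays. The mean level of the pericyte list was 6.16 to 6.41 and 6.32 to 6.41 in the same groups, and that of the myeloid list 5.26 to 5.79 and 5.39 to 5.76. On the pericyte list RGS5 read 7.76, 7.86 and 9.65 in parental xenografts, 7.05, 8.28 and 7.32 in parental culture and 6.80 to 7.33 in spheroid xenografts. The median difference of that list was 0.01 for parental xenograft minus culture and -0.16 for spheroid minus parental xenografts. Of 8 fibroblast markers 2 rose in parental xenografts: COL3A1, a fibrillar collagen, by 2.06 (limma adjusted p = 0.0126) and FAP, a fibroblast protease, by 2.20 (adjusted p = 8.50e-04). Without both replicates 1 and 2 of parental culture FAP stayed called (2.11, 0.00705) and COL3A1 did not (2.15, 0.0766). The list for a carcinoma line of this origin had 8 measured genes, among them CDH1 and EPCAM, which lay below the lower quartile on all 12 arrays. On it KRT8 fell by 1.43 from parental to spheroid culture (limma adjusted p = 0.0110) and by 1.77 from parental culture to parental xenografts (0.00278). KRT18 fell by 1.71 in the latter comparison (0.0191). These 3 differences stayed called without both arrays (adjusted p 0.0145 to 0.0463).

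The fibroblast list averaged 5.76 to 6.12 in parental culture, 6.09 to 6.23 in spheroid culture, 6.37 to 6.85 in parental xenografts and 6.31 to 6.39 in spheroid xenografts, with LUM, a fibroblast proteoglycan, below the lower quartile on all 12 arrays. FAP also fell by 1.35 from parental to spheroid xenografts (limma adjusted p = 0.0365), and its interaction of -1.94 was called too (adjusted p = 0.0416). COL3A1 read 6.41, 6.14 and 7.27 in spheroid xenografts and 5.40, 5.43 and 5.19 in spheroid culture, a step that was not called. The part of these cells, or of the lower keratins, in the higher JAG1 and NOTCH2 of parental xenografts was not tested. The probes are designed for human RNA, and how far they read RNA of the host was not tested either.

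Genes most like each called member were taken by the smallest root mean square difference over the 12 arrays, after each gene was centred on its own mean. For JAG1, whose own deviation from its mean was 1.29, they were ANKRD37 at 0.39, SPP1 (osteopontin) at 0.44 and ANPEP (aminopeptidase N) at 0.51. For NRARP, with 0.61, they were LPAR2, a lysophosphatidic acid receptor, at 0.27, RHBDF1 at 0.30 and RNF43, a ubiquitin ligase of Wnt receptors, at 0.31. For NOTCH2, with 0.41, they were COPA, a coat protein of transport vesicles, at 0.11, NORAD, a long noncoding RNA, at 0.12 and ADNP at 0.12. In the group order used for JAG1 above, the means of ANKRD37 were 5.60, 7.73, 9.20 and 8.78. Those of SPP1 were 11.47, 13.04, 13.89 and 13.32, and those of ANPEP 6.76, 8.87, 9.72 and 9.04. These genes were picked for their likeness to JAG1 on the same arrays, so the shared order of groups is no separate result.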

How the data were processed

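The authors deposited 1 log2 value per probe set and array, and RMA and affy are the tools listed for these samples, per the submitters' processing notes. The sources used here give neither tool versions nor whether normalisation spanned all 12 arrays. RMA pulls differences of dim probe sets towards 0, and what a probe set reads beyond its gene cannot be seen in it. Of the probe sets outside 62 controls, 41091 had 1 symbol in the platform annotation, which can be old, 1801 had several and 11721 had none, and 41037 were matched to the RefSeq table by gene number. Each of 19775 genes was read by its brightest single-symbol probe set, with no filter on low values.

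A linear model with 1 mean per group (12 arrays, 8 residual degrees of freedom) was fitted with limma 3.58.1 in R 4.3.3. The tests were moderated by eBayes, two-sided and adjusted by Benjamini-Hochberg. The fit was first run on simulated data with the same spread in all groups and no shared deviations of arrays. That run cannot show how the tests behave with the unequal spread of these arrays. Intervals are 95%. The number of arrays limits the precision, and an exact permutation test of 3 against 3 arrays cannot go below p = 0.1. The members, lists and tests were chosen with earlier results of these data known. From each pathway list the called genes are named, or the brightest gene where none was, and DNER was chosen after its values were seen. Same-numbered arrays deviated together (every pair's correlation over 0.1) in spheroid culture with spheroid xenografts (0.33 to 0.43) and in parental with spheroid xenografts (0.18 to 0.48), not in the pairs with parental culture (-0.56 to 0.33), so the block was also fitted to the 6 arrays of each comparison, an alternative chosen after seeing the data, as was the fit of listed genes without 2 parental cultures. Alternatives were other normalisations, choices of probe sets, filters, array weights and fits without single arrays.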

Additional observations from a re-analysis of the deposited data

How the results depend on the processing

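The 4 called differences of the members kept their direction under all alternatives (25 per comparison, 23 for the interaction), and of all 50 member differences 18 turned sign under at least 1, none of them called. Spheroid minus parental in culture, with 2 members called, gave 0 after median centring and with only the 6 arrays compared, 1 (NRARP) with the mean of all probe sets and with the probe sets that carry neither an _x_at nor an _s_at suffix (6 members left), 1 (HES1, lower, while JAG1 and NRARP were both lost) without both parental culture replicates 1 and 2, and 4 with array weights or with the interquartile range as a covariate; leaving out 1 array at a time gave 0 to 2. Parental xenograft minus culture, also with 2, gave 1 after median centring and with the 6 arrays, 0 without the suffixed probe sets, which left JAG1 and NOTCH2 untested, 5 with array weights, and again 2, JAG1 and HES1, without both parental culture replicates; leaving out 1 array gave 1 to 3. Spheroid xenograft minus culture, with 0, gave 1 (HEY1) with quantile normalisation within culture and xenografts, with the 6 arrays and with the covariate, and 2 with array weights; leaving out 1 array gave 0 to 1. The interaction, with 0, gave 1 (JAG1) with quantile normalisation again, the same within culture and xenografts, cyclic loess, array weights and the covariate; leaving out 1 array gave 0 to 1, with JAG1 at -2.80 (adjusted p 0.0325, range over its alternatives 0.00212 to 0.388) without parental culture replicate 2. Spheroid against parental xenografts gave 0 throughout. Shares of all genes moved too. Array weights called 10.6% in culture, 11.8% in parental cells, 4.63% in spheroid cells and 4.53% for the interaction. With the covariate they were 8.85%, 9.61%, 1.03% and 1.8%, against 2.46%, 3.47%, 0.0202% and 0.137% in the main fit. The 6 arrays alone called 0.0759% in culture, 0.349% in parental cells and 0.592% in spheroid cells. Quantile normalisation within culture and xenografts called 0.48% in spheroid cells and 0.662% for the interaction. Over all genes the counts were 487 in culture, 46 between xenografts, 687 in parental cells, 4 in spheroid cells and 27 for the interaction. In the same order they were 2095, 1206, 2343, 915 and 896 with array weights, the highest over the alternatives, and the lowest were 15 in culture with the 6 arrays alone and 68 in parental cells with the replicate block in them, and 4 between xenografts, 1 in spheroid cells and 2 for the interaction without single arrays. With the replicate number as a block (replicate block) the members called were 2, 0, 2, 0 and 0 and the genes 444, 43, 626, 8 and 12. With the replicate block in only the 6 arrays compared, the members were 0, 0, 1 (JAG1) and 2 (JAG1 and HEY1). The genes were 22, 491, 68 and 591. Same-numbered arrays deviated together in every pair only for the second and the last of these. The labels do not say that the numbers pair arrays. Of the 12 arrays, 2 had a same-numbered array as the closest one of another group. The cause of these shifts was not tested.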
